A study of Mus musculus with 125 samples.

Results

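Of 256400 consensus peaks of accessible chromatin, 304 were less accessible late in the co-culture of mouse leukaemia cell lines A and B with natural killer (NK) cells than in the same lines grown alone. They were selected by a rule on line means. Counts were scaled to CPM (counts per 1000000 counts in peaks) by each library's column sum, log2(CPM + 0.5) was averaged over the 9 libraries of a line and arm, and a member had to lie on chromosomes 1 to 19, have a mean CPM of 1 or more over all libraries, and be lower by 0.58 or more on the log2 scale (1.49-fold) at the late time point in A and in B alike. The position and level criteria left 110249 peaks that the rule could take. The mirror rule, 0.58 or more higher in both lines, held for 1550 peaks, so among peaks past this size in A and B opened regions outnumbered closed ones. All values of A and B given below describe the regions that this contrast selected, and no test was made on them. Lines C and D entered the rule through the mean CPM alone, and the tests were made there.

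The cells were mouse lymphoblastic leukaemia cells of the B lineage (B-ALL), transformed by the BCR/ABLp185 fusion kinase and carrying a DNA barcode library with GFP. Lines A and B came from the parental line #13 and C and D from #15, so partner lines are not independent and the line pairs stand for 1 parental line each. Of the 3 arms, B-ALL alone was taken at the early time point (TP1), and B-ALL + NK, with IL-2-activated primary mouse NK cells, both at TP1 and at the late one (TP2). Per the labels cells were harvested on days 4 (TP1) and 10 (TP2), and on days 6 and 16 in experiment 9.7, while the study's text gives another day for TP2, and each line was studied in experiments 9.5, 9.6 and 9.7, with C also in 9.5.1 and D also in 9.6.1. Leukaemia cells were sorted as GFP+ cells, and 50000 cells per library were transposed for ATAC-seq, in which the transposase Tn5 cuts and tags open DNA. B-ALL cells alone were sampled at TP1 only, so the length of culture and the exposure to NK cells cannot be told apart at TP2. The assay reads a bulk of cells, in which fewer cells with an open region and less opening per cell cannot be told apart either.

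Accessible regions away from promoters are often enhancers, short stretches where transcription factors keep nucleosomes off the DNA, and those at transcription start sites (TSSs) are promoters. In early B cells such regions are held open by factors including PU.1, an ETS family protein, RUNX1, EBF1, PAX5 and the E-box binding protein E2A. When binding is lost a region closes, and the count of its fragments in ATAC-seq falls. NK cells kill tumour cells and secrete interferon-γ, which opens regions with interferon response elements in its target cells.

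The 125 libraries held 3083547 to 13580746 counts in peaks, with a median of 7738029. Of 42 groups of line, experiment and arm, 41 had 3 libraries and 1 had 2. Replicates 2 and 3 agreed within sampling noise in 2 groups of line C (NK TP2 in 9.5 and alone in 9.5.1, chi-square over degrees of freedom 0.836 and 0.868), and each such pair was averaged to 1 sample in the tests. The promoter peaks of the 8 B-lineage markers found, such as Cd79a and Igll1, summed to 371 to 800 CPM in every library of A and B. The 8 NK cell markers found, of 10, summed to 39.9 to 58.2 CPM in A and B alone to 43.7 to 66.5 CPM with NK cells at TP1 and to 40.6 to 59.3 CPM at TP2. In these lines Gzma and Gzmb, which encode the granzymes of NK cells, averaged 0.618 and 1.93 CPM alone, 1.29 and 3.48 CPM at TP1 and 1.46 and 2.77 CPM at TP2. Il2rb also rose, from 6.60 CPM alone to 8.05 CPM at TP2. The remaining markers were lower at TP2 than alone. These were Klrb1c (8.16 to 7.94 CPM), Klrd1 (4.65 to 3.70), Prf1 (2.29 to 2.19), Eomes (15.2 to 14.9) and Tbx21 (11.3 to 10.2). At TP1 Klrd1, Prf1, Eomes and Il2rb were above alone, and Klrb1c and Tbx21 below. The part of NK cell DNA in the results was not tested.

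Sequences of 4 closed regions that carry the results are shown, each as the 300 bases at the peak's centre, 5′ to 3′ on the plus strand of GRCm38. The first 2 were among the most closed regions of lines A and B, and the other 2 were among the 3 with the largest decreases of the tested members in lines C and D. Capitals mark matches, on either strand, to a RUNX site (TGTGGTT), a PU.1-type ETS site (GAGGAAGT), an EBF1 core (CCCNNGGGA) or an E-box of the E2A type (CAGCTG). The windows of the strongest Pde10a peak and of the Rasgrp3 promoter peak were also searched. They held no match to these 4 motifs and are not shown. The 4 windows shown lie at chr10:68795402-68795701 (intergenic, nearest to the TSS of Tmem26), chr4:127640900-127641199 (intergenic, nearest to A630031M04Rik), chr13:6802620-6802919 (intergenic, nearest to 2900024D18Rik) and chr3:109454588-109454887 (intron of Vav3).
Tmem26: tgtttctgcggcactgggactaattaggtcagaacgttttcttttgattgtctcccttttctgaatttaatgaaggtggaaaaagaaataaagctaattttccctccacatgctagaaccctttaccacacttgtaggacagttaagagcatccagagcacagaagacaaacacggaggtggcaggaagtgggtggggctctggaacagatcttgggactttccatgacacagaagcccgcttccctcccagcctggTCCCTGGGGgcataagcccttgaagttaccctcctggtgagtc
A630031M04Rik: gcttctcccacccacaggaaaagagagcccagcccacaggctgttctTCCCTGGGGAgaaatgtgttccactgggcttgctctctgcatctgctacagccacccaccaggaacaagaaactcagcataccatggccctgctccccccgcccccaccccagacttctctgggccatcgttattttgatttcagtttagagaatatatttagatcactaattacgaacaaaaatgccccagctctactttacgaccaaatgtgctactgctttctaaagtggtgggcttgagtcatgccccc
2900024D18Rik: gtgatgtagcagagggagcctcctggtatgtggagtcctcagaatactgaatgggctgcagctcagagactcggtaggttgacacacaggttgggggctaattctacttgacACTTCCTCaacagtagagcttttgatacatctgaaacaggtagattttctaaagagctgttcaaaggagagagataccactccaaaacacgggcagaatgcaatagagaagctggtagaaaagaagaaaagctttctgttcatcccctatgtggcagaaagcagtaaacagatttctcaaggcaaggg
Vav3: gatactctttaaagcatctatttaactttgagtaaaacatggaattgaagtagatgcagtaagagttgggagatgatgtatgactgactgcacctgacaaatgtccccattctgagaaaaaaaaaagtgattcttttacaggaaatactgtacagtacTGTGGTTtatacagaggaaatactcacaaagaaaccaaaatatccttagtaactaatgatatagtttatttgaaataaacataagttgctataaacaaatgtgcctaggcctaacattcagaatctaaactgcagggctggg

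The members ranged widely in the size of the late decrease. The median difference between B-ALL + NK at TP2 and B-ALL alone was -0.88 in A and -0.76 in B (log2(CPM + 0.5) scale, as for every difference of A and B below), with extremes of -2.04 in A and -2.18 in B, and 34 members were lower by 1 or more in both lines. The median over all 110249 peaks was 0.13 in A and 0.0071 in B, so the column-sum scaling set the bulk of peaks in A slightly above 0. Each experiment of each line gave a like median, from -0.90 to -0.92 in the 3 experiments of A and from -0.75 to -0.89 in those of B. Of the members, 291 were lower in all 6 combinations of line and experiment and 74 were lower by 0.58 or more in each of them. Across single libraries, all 9 at TP2 lay below all 9 alone for 136 members in A, against 0.372% of all peaks, and for 52 in B, against 0.0834%. This held in both lines for 32 members, against 36 of all peaks (0.0327%), in the contrast that selected the members.

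**Figure D1:**
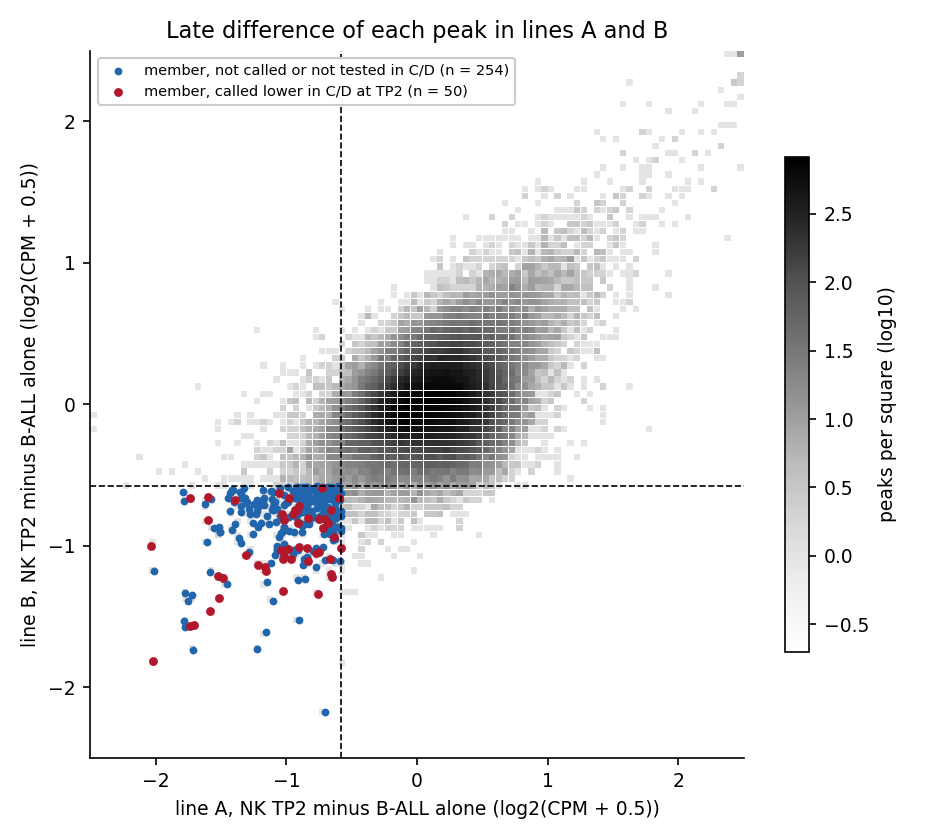
Difference between B-ALL + NK at TP2 and B-ALL alone in line A (x axis) and line B (y axis), in log2(CPM + 0.5), for all 110249 peaks (grey squares, shaded by the log10 of their number, values past 2.5 drawn at the edge), with the 304 members as points and the threshold of -0.58 as dashed lines. Members fill the lower left corner by the rule, and red points are the 50 members called lower in C and D at TP2.

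The threshold cut through a continuum. Just inside it lay peaks at Gucy1b2 (-0.76 in A and -0.58 in B), Rasgef1b (-0.58 and -0.79) and, in an intron of Fgfr2, nearest to Tacc2 (-0.61 and -0.58). Just outside lay peaks nearest to Gm43021 (-0.58 and -0.73), Gm567 (-1.27 and -0.58) and Arid5b (-0.58 and -0.92), whose larger values fell short of the limit in the third decimal place or beyond.

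The region with the lowest mean difference was intergenic, 71728 bp from the TSS of Tmem26, a gene for a transmembrane protein. In line A its level was 9.71, 13.2 and 16.0 CPM (lowest, median and highest of 9 libraries) alone and 2.06, 2.53 and 3.92 CPM at TP2. In line B it was 3.34, 6.11 and 12.2 CPM alone and 0.649, 1.44 and 4.10 CPM at TP2. The arms were apart in A, while in B the highest TP2 library overlapped the lowest libraries of cells alone, across experiments. By experiment (9.5, 9.6 and 9.7) means in B were 3.84, 9.98 and 6.19 CPM alone and 1.03, 2.63 and 1.09 CPM at TP2. The difference averaged -1.92 ± 0.28 (SD over 6 combinations of line and experiment). A second member, 49.3 kb away and nearest to 1700048P04Rik, averaged -1.65 ± 0.30, and these were the only 2 peaks of their stretch that the rule could take.

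In an intron of Pde10a, which encodes a phosphodiesterase that degrades cAMP and cGMP, a peak was at 3.34, 4.97 and 9.05 CPM (lowest, median, highest) in A alone and at 0.690, 1.32 and 1.99 CPM at TP2. Line B gave 3.88, 7.46 and 8.49 CPM alone and 1.06, 1.6 and 2.23 CPM at TP2. Libraries of the 2 arms did not overlap in either line, and no TP2 library of A or B had a called broad peak there, against 17 of 18 libraries alone. In C and D the same region stayed more open, with medians at TP2 of 6.56 and 7.52 CPM against 8.92 and 10.1 CPM alone, and the arms overlapped.

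The region nearest to A630031M04Rik, shown above with overlapping EBF1 cores on both strands, was at 7.66, 9.90 and 10.9 CPM in A alone and at 1.47, 2.3 and 3.72 CPM at TP2, with no overlap. In B it was at 3.28, 5.06 and 7.58 CPM alone and at 0.494, 1.25 and 3.58 CPM at TP2, where 1 TP2 library reached the lowest libraries alone. By experiment (9.5, 9.6 and 9.7) means in B were 3.90, 6.83 and 4.96 CPM alone and 1.36, 2.51 and 0.732 CPM at TP2. Its medians in C were 3.58 CPM alone and 3.23 CPM at TP2, and in D 2.28 and 1.73 CPM, with overlapping arms.

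At the promoter of Pcdhac1, 257 bp from the TSS in the alpha cluster of protocadherins (cell adhesion proteins best known from neurons), levels in A were 14.2, 17.9 and 23.8 CPM alone and 2.63, 4.99 and 6.90 CPM at TP2. In B they were 4.19, 10.4 and 16.1 CPM alone and 1.67, 2.43 and 5.53 CPM at TP2. The arms were apart in A and overlapped in B, across experiments. By experiment (9.5, 9.6 and 9.7) means in B were 5.19, 15.2 and 9.98 CPM alone and 2.44, 4.90 and 1.93 CPM at TP2. Lines C and D went the other way, from medians of 11.0 and 4.56 CPM alone to 14 and 6.61 CPM at TP2, with a fitted log2 fold change of 0.45 ± 0.08 (SE, adjusted p = 5.71e-06, edgeR quasi-likelihood F-test), short of the 0.58 required for a call.

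**Figure D2:**
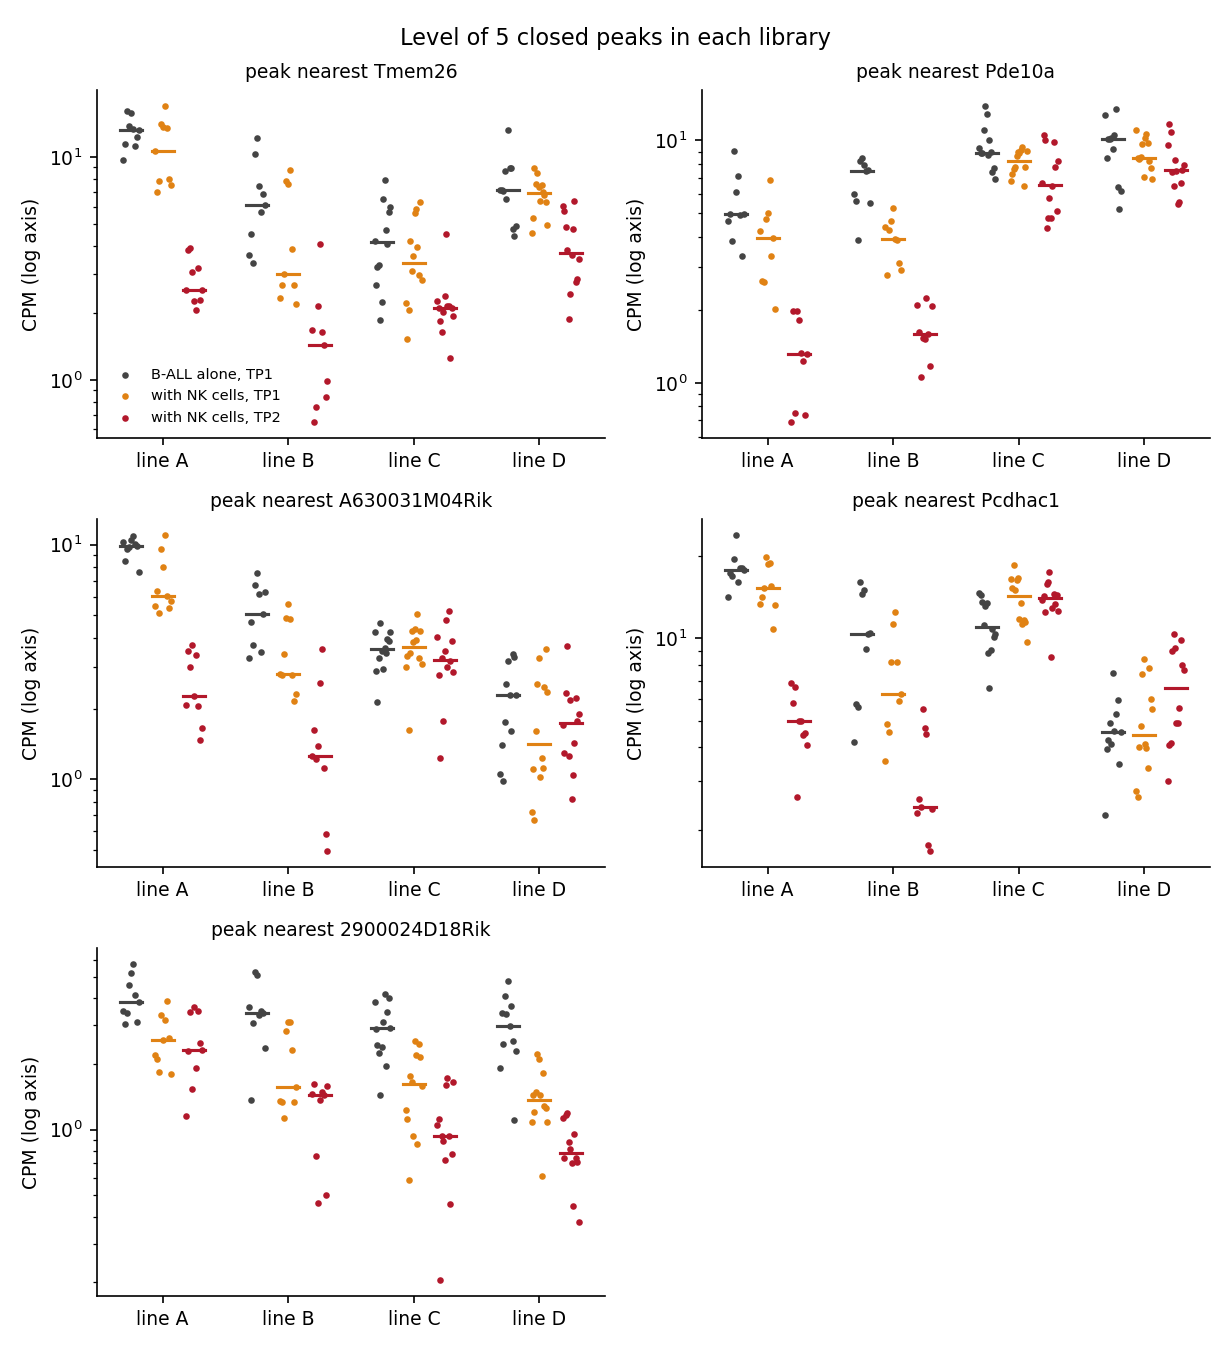
CPM (log axis) of 5 members in every library, by line (x axis) and arm (black, B-ALL alone at TP1; orange, with NK cells at TP1; red, with NK cells at TP2), with the median of each arm as a bar. The regions nearest to Tmem26 and 2900024D18Rik are lower at TP2 in all 4 lines, whereas those at Pde10a, A630031M04Rik and Pcdhac1 separate the arms mainly in A and B.

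At TP1 most members already lay below the level of cells alone, by less than at TP2. The median difference at TP1 was -0.41 in A and -0.36 in B. At TP1 277 members were lower in A and 283 in B, against 36.8% and 41.1% of all peaks. Lower by 0.58 or more in both were 37 members, against 0.116% of all peaks. For 241 members (79.3%, against 4.05% of all peaks) the mean of TP1 lay between those of cells alone and TP2 in both lines. The rule set TP2 low in both lines, so a member slightly below cells alone at TP1 falls between them. All peaks are therefore no like background here, and the order of TP1 and TP2 is in part set by the selection. The Vav3 promoter peak was an exception, at 35.8 CPM alone, 38.5 CPM at TP1 and 13.3 CPM at TP2 in A (mean of 9 libraries) and at 24.6, 27 and 15 CPM in B. TP1 and TP2 were set against the same libraries of cells alone, so their differences are not independent. Peak calls per library followed the counts. A broad peak was called in every A and B library alone for 103 members (33.9%, against 19.6% of all peaks) and in every TP2 library for 19 (6.25%, against 17.1%). It was called in no library alone for 5 members (1.64%, against 34.3%) and in no TP2 library for 66 (21.7%, against 30.2%).

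Lines C and D, which descend from another parental line, were used to ask whether the same regions closed there. The members started from like levels, with median log2(CPM + 0.5) alone of 2.94, 2.55, 2.89 and 2.84 in A to D. In a fit of 69 samples of C and D, 253 members were tested among 55456 peaks, and 50 (19.8%) were called lower at TP2, with thresholds of 0.05 for the adjusted p and 0.58 for the size of the log2 fold change (edgeR quasi-likelihood F-test with Benjamini-Hochberg adjustment over all peaks tested). The share called lower among all peaks tested was 1.01%. No member was called higher, against 1.73% of all peaks, while at an unadjusted p under 0.05 there were 168 lower and 11 higher (21.5% and 22.2% of all peaks), and DESeq2 called 50 lower, 49 of them shared, and 0 higher. The median fitted log2 fold change was -0.28 for the members and 0.0034 for all peaks, and 211 members (83.4%) were below 0, against 49.3% of all peaks. By the adjusted p alone 156 members (61.7%) were lower, against 16.8% of all peaks, and 8 were higher, against 17.7%.

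Of the 304 members, 303 passed the filter on low counts and 253 also had broad peaks over them in all replicates of 1 or more groups of C or D, which left 51 untested. With no filter all 304 were tested and 61 were lower (0.640% of all 256400 peaks were), 47 of them among the 50. By the line means of the rule itself, 33 members were lower by 0.58 or more in both C and D, against 0.183% of all peaks, which is 10.9% of the members and 16.3% of the 202 peaks that closed late in C and D by this rule. The decreases in C and D were smaller than in A and B, with medians over the 304 members of -0.29 in C and -0.31 in D. The size of the difference between the line pairs was not tested, since the A and B values chose the members. Of the 50, 40 were lower in all 8 combinations of line and experiment in C and D, as were 77 of all 304 members. These are the samples that gave the calls. The number of lower combinations therefore describes a called member, here and below, and adds no test. Among the 28 tested members that were lower by 1 or more in both A and B, 15 (53.6%) were called.

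At TP1 in C and D 9 members (3.56%) were called lower, against 0.11% of all peaks, and none higher, against 1.71%. At an unadjusted p under 0.05, 140 were lower and 4 higher at TP1 (13.3% and 14.7% of all peaks). DESeq2 also gave 9 lower and 0 higher (0.119% and 1.72% of all peaks), and the median fold change of the edgeR fit was -0.19 for the members and -0.01 for all peaks. Of the 9 peaks, 8 were nearest to Gm9061 (log2 fold change -1.04), 2900024D18Rik (-0.98), Gm8748 (-0.75), Gm23117 (-0.64), Osbpl10 (-0.63), Gm37194 (-0.60), Gabbr2 (-0.60) and Gm5306 (-0.59), and all of the 8 but those at Gabbr2 and Gm37194 were also called at TP2. Leaving out 1 replicate number at a time gave 6 to 13 members at TP1 (0.0902% to 0.285% of all peaks), and 4 were called in line C alone (0.198% of all peaks). Lines C and D differed at TP2 for 1 of the 253 members, at Wwc1, at an adjusted p of 0.05 or less, against 16 of all peaks tested (edgeR interaction test).

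**Figure D3:**
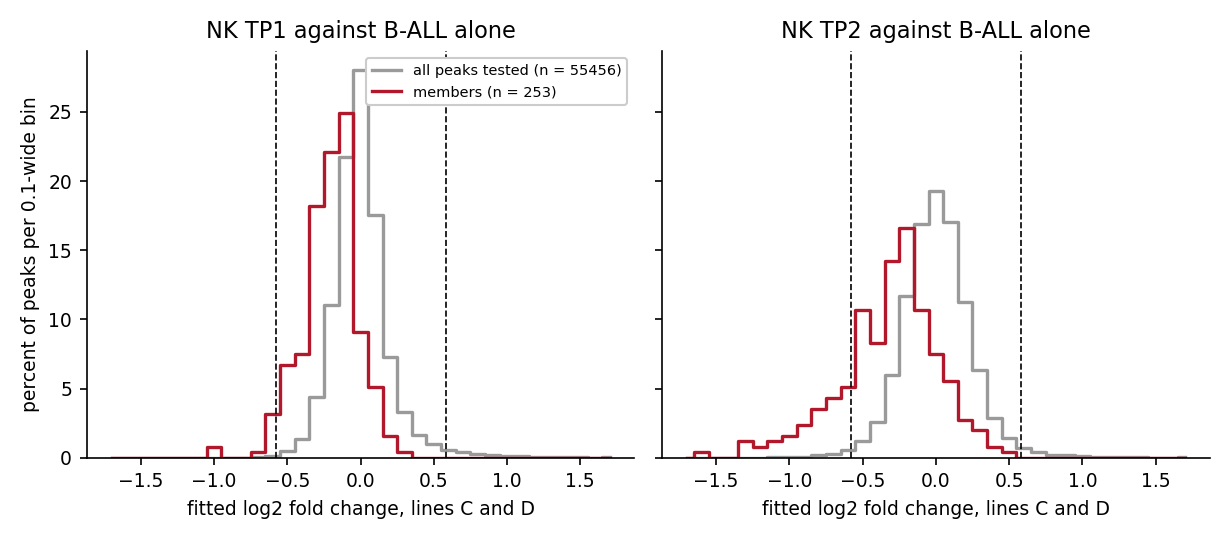
Fitted log2 fold change (x axis) against B-ALL alone in lines C and D at TP1 (left) and TP2 (right), as the percent of peaks per bin of 0.1 (y axis, values past the axis drawn in the last bin), for 253 members (red) and all 55456 peaks tested (grey), with dashed lines at 0.58 in each direction. Members lie to the left of all peaks, with medians of -0.19 at TP1 and -0.28 at TP2.

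Of the genes listed for B cell receptor, protein kinase C and Ras signalling, Rasgrp3 and Vav3 held members. At the promoter of Rasgrp3, whose product loads Ras with GTP after B cell receptor signals, the peak (chr17:75464635-75466279, 29 bp from the TSS) went from a mean of 10.5 CPM alone to 3.03 CPM at TP2 in A and from 7.85 to 2.41 CPM in B, a difference of -1.63 ± 0.27 (SD over 6 combinations). It was also called lower in C and D, at -1.13 ± 0.13 (log2 fold change ± SE, adjusted p = 3.72e-11, lower in 8 of 8 combinations). Vav3, which encodes an exchange factor for small GTPases, held 4 members, the promoter and 3 intronic peaks. The intronic peak whose sequence is shown (chr3:109454291-109455186) averaged -1.21 ± 0.81 in A and B and changed by -1.31 ± 0.19 in C and D (adjusted p = 1.47e-07), and its spread in A and B included a value of 0.001 in B in experiment 9.7. The Vav3 promoter peak changed by -0.65 ± 0.12 in C and D (adjusted p = 1.91e-05), and by -0.47 when experiment 9.7 was left out, below the size for a call. The other 2 Vav3 peaks were not tested in C and D.

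The promoter of Cdc42ep4, an effector of the GTPase Cdc42 that acts on the actin cytoskeleton, was at 20.3 CPM alone and 4.74 CPM at TP2 in A and at 10.5 and 5.11 CPM in B (means). Its C and D value of -0.66 ± 0.17 (adjusted p = 0.00169) rested on experiment 9.7, without which it was -0.13 (adjusted p = 0.569), and it was also short of a call without replicate 1 (-0.56). At the promoter of Sash1, a scaffold protein, the difference was -1.44 ± 0.69 in A and B and -0.71 ± 0.14 in C and D (adjusted p = 3.38e-05), and -0.44 there without experiment 9.7. Pde10a held 4 members, of which 2 intronic peaks were called in C and D (-0.60 ± 0.16, adjusted p = 0.00271, and -0.59 ± 0.13, adjusted p = 0.000166). Both values lay at the threshold, and without replicate 2 they were -0.49 and -0.58 and no longer called. The strongest Pde10a peak was at -0.30 ± 0.09 (adjusted p = 0.00376) in C and D and its promoter peak at -0.20 ± 0.11 (adjusted p = 0.129). An intronic peak of Cnksr3, a scaffold of the Ras pathway, averaged -1.55 ± 0.35 in A and B and was at -0.48 ± 0.09 in C and D (adjusted p = 2.8e-05), short of a call except without experiment 9.7 (-0.72).

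In an intron of Tshz2, a zinc finger factor, the peak nearest to AY702102 averaged -1.52 ± 0.14 in A and B, the smallest spread among the 12 most closed members, and changed by -1.12 ± 0.09 in C and D (adjusted p = 7.42e-16, lower in 8 of 8 combinations). The promoter of Ikzf3, which encodes the lymphoid factor Aiolos, went from 23.9 to 12.5 CPM in A and from 18.1 to 11.3 CPM in B (means). In C and D it was at -0.19 ± 0.07 (adjusted p = 0.0178), short of a call. It was 1 member among 427 peaks assigned to 37 genes of B cell identity and the pre-B cell receptor (0.234%, near the 0.276% of all peaks). In introns of the gene model Gm20388 lay 4 members within 59.1 kb. Their nearest TSS was that of Gm22715 or of Gse1, which encodes a protein of transcriptional corepressor complexes. These 4 members averaged from -0.64 to -1.12 in A and B. None of these was called in C and D, where they lay between -0.34 and -0.03.

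Members at the promoters of other genes went with A and B in part. Beside Pcdhac1, the promoter of Nespas, a noncoding antisense RNA of the imprinted Gnas locus, went from 16.5 to 4.74 CPM in A and from 7.19 to 2.62 CPM in B, while in C and D it was at -0.21 ± 0.11 (adjusted p = 0.12). The promoter of Cdh5, which encodes the endothelial cadherin, averaged -0.63 ± 0.22 in A and B and was at -0.26 ± 0.08 in C and D (adjusted p = 0.00633). An intergenic peak 58869 bp from the Cdh5 TSS, nearest to Gm8748, was among the largest decreases in C and D (-1.26 ± 0.11, adjusted p = 2.13e-15), beside -1.05 ± 0.44 in A and B. The St5 promoter (14.9 to 4.20 CPM in A and 8.89 to 3.21 CPM in B) could not be tested in C and D. At Tmc7, a gene of the transmembrane channel-like family, an intronic peak went from 21.0 to 4.89 CPM in A and from 19.3 to 8.42 CPM in B, and was at -0.26 ± 0.07 in C and D (adjusted p = 0.00346). Of 84 members with their centre within 3 kb of a TSS, 78 were tested in C and D and 12 called lower, among them those nearest to Rasgrp3, Gm9061, Rab27b, Sash1, Abca1, Trib2, Cdc42ep4, Vav3, Pkib, 1700017J07Rik and Gm10010. Of all peaks tested, at any distance, 1.01% were called lower, and the share by distance was not counted.

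The other 38 of the 50 were distal, out of 175 distal members tested, and these 38 included the largest decreases. The region nearest to 2900024D18Rik (chr13:6802180-6803360), with the PU.1-type site shown, was at 1.45, 2.91 and 4.17 CPM (lowest, median, highest) in C alone and at 0.205, 0.935 and 1.73 CPM at TP2. In D it was at 1.11, 2.99 and 4.81 CPM alone and at 0.378, 0.779 and 1.20 CPM at TP2. The ranges of the 2 arms overlapped at their ends in both lines, and the fitted change was -1.64 ± 0.13 (adjusted p = 1.48e-16, lower in 8 of 8 combinations), with -0.98 ± 0.12 at TP1 (adjusted p = 7.51e-10). Its decrease was smaller in A, from a median of 3.83 to 2.31 CPM, and in B, from 3.41 to 1.44 CPM. The peaks nearest to Gm49439 and 4930520K02Rik changed by -1.16 ± 0.13 (adjusted p = 1.02e-10) and -1.16 ± 0.11 (adjusted p = 1.46e-14), each lower in 8 of 8 combinations. In the intergenic stretch beside Ttc32, a gene for a tetratricopeptide repeat protein, all 4 peaks that the rule could take were members, and the 3 that could be tested in C and D were called lower (-1.03 ± 0.12, -0.87 ± 0.08 and -0.62 ± 0.11, adjusted p of 6.73e-10, 5.19e-15 and 9.69e-06). The last of them was at -0.58 without replicate 3 and not called. Both regions at Tmem26 were called, at -0.97 ± 0.12 (adjusted p = 6.7e-10) and -0.87 ± 0.12 (adjusted p = 1.93e-08), and that nearest to A630031M04Rik was not (-0.13 ± 0.12, adjusted p = 0.424).

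Experiment 9.7 had the later harvests. Between TP2 and cells alone its median difference over all 110249 peaks was the lowest of the experiments in each line, at 0.0004 in A, -0.17 in B, -0.22 in C and -0.24 in D by column-sum scaling, beside member medians in C and D of -0.31 and -0.12. In this experiment the member median was thus below that of all peaks in C and above it in D. Member medians in the other experiments were -0.43, -0.21 and -0.29 in C (9.5, 9.5.1 and 9.6) and -0.40, -0.42 and -0.26 in D (9.5, 9.6 and 9.6.1). Without experiment 9.7, 52 members were called lower at TP2 in C and D, 42 of them shared with the 50, against 0.806% of all peaks tested.

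Closed regions lay mostly away from promoters and in part close to each other. Of the 304, 127 had their centre between genes, 139 in an intron and 38 in an exon. The share within 3 kb of a TSS was 27.6%, against 33.5% of all peaks that the rule could take, that within 1 kb was 21.4% against 21.1%, and that over 50 kb from any TSS was 15.8% against 5.24%. Of the 202 peaks closed late in C and D, 23.8% lay within 3 kb of a TSS and 21.8% over 50 kb from any. Members were wider (median 1662 against 1290 bp) and of higher mean level (5.72 against 2.92 CPM) than all peaks, with like GC content (49.0% against 49.6%), and the added 0.5 CPM shrinks the differences of low peaks more than those of high ones. These are descriptions with no test. In cells alone 22 members (7.24%, against 0.524% of all peaks) were higher by 1 or more (log2) in A and B than in C and D. The other way were 9 (2.96%, against 1.75%). The rule used the level of A and B alone, so it favours members that are high there.

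Within 100 kb of another member lay 139 of the 304, in 48 stretches, while 165 stood alone. Whether this is more than the density of peaks alone gives was not tested. The stretch with most members, on chromosome 7 (chr7:139130409-139569396, 438 kb between the first and last centre), held 11 members among 61 peaks, over Stk32c (a protein kinase gene), Lrrc27, Pwwp2b and Inpp5a, which encodes an inositol phosphate 5-phosphatase. Of the 50 other peaks, which the rule did not take, 27 were lower in both A and B, with a median of -0.22 (mean of A and B). In C and D the medians over the 61 were 0.02 and 0.04. All 11 members were tested in C and D, at -0.14 to 0.35, and none was called lower. At Inpp5a the member with the most counts was at 39.5 CPM alone and 15.2 CPM at TP2 in A and at 30.2 and 17.7 CPM in B (means), and at 0.12 ± 0.06 (adjusted p = 0.0827) in C and D. Over the whole of chromosome 7, singled out after its values were seen, 0 of 28 tested members were called lower in C and D. The share called lower was 19.8% of all tested members and 1.01% of all peaks tested. The 28 include the 11 of this stretch, so they are not separate observations.

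**Figure D4:**
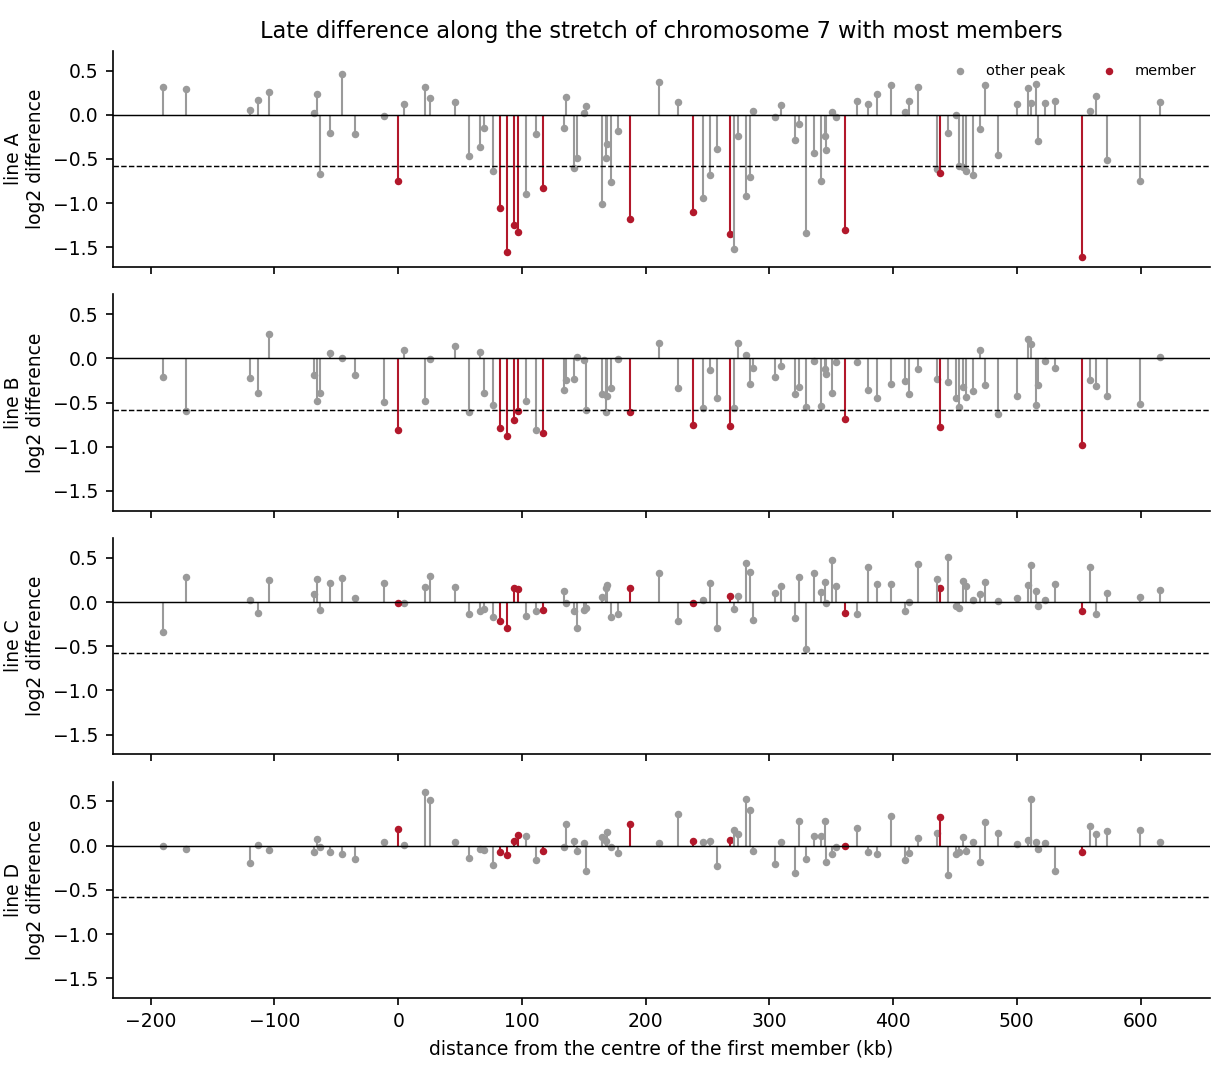
Difference between B-ALL + NK at TP2 and B-ALL alone (y axis, log2(CPM + 0.5)) of each peak along the stretch of chromosome 7 and on both sides of it, by distance in kb from the centre of its first member (x axis), in lines A to D from top to bottom, with members in red, other peaks in grey and the threshold of -0.58 dashed. The 11 members of the stretch lie below the threshold in A and B by the rule. Its 50 other peaks have a median of -0.22 there (mean of A and B), and in C and D the peaks scatter around 0. A further member, at Cfap46 at 553 kb, lies outside the stretch.

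Other stretches held 6 members at Dnaic2, Kif19a and Gpr142, 5 at Neurod2, Ppp1r1b and Pgap3, and 5 at Cdc42ep4 and Sdk2, all on chromosome 11. At Neurod2 the 15 other peaks of the stretch were all lower in both A and B, with a median of -0.48 (mean of A and B), and in C and D the medians over its 20 peaks were 0.05 and -0.0001. Most members did not lie in such domains. Over the 258 members with 3 or more other peaks within 100 kb, the median of the neighbours' median difference in A and B was -0.11, with 35 at -0.29 or below and 4 at -0.58 or below, against a median of 0.07 over all peaks. The 304 members were assigned to 236 genes, 14 of them with 3 or more members. By chromosome the share of members among peaks ran from 0.0876% on chromosome 19 (3 members) to 0.563% on chromosome 18 (18 members), and the largest number was 30 on chromosome 7.

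The central 300 bases of the members were searched for 21 motifs on both strands. A RUNX match (TGTGGTT) stood in 14.1% of members, against 8.0% of all peaks that the rule could take and 11.5% of the 1550 peaks opened late. PU.1-type ETS matches (GAGGAAGT) stood in 7.57%, against 3.95% and 3.23%, and FOX matches (TGTTTAC) in 6.58%, against 3.38% and 4.71%. The EBF1 core (CCCNNGGGA) was in 11.8%, against 7.86% and 5.68%, and the E-box CAGCTG in 25%, against 20.1% and 16.6%. The 202 peaks closed late in C and D, of which 33 were members, had PU.1-type matches in 10.9%, above the members. They had RUNX in 11.4%, FOX in 5.45%, the EBF1 core in 8.42% and the E-box in 22.8%. STAT matches stood in 17.3% of these 202 peaks and KLF/SP matches in 4.95%. Over 3 kb from a TSS the EBF1 core was in 13.6% of members and 7.47% of all peaks, the E-box in 27.3% and 20.2% and FOX in 9.09% and 3.69%. Within 3 kb these 3 were not above all peaks, at 7.14% and 8.64%, 19% and 20.1%, and 0 of 84 members and 2.76%. RUNX and PU.1-type matches stood above all peaks at both distances, in 13.6% and 8.84% (RUNX) and 8.64% and 4.37% (PU.1-type) over 3 kb and in 15.5% and 6.33% and 4.76% and 3.10% within it. The interferon response motif (GAAANNGAA) stood in 7.57% of members, 8.93% of all peaks and 27% of the opened peaks. A KLF/SP match (GGGCGGG) was in 10.9% of members, 7.25% of all and 1.87% of opened peaks (28.6% of members and 15% of all peaks within 3 kb), the AP-1 motif (TGANTCA) in 9.54%, 9.09% and 13.2%, and the CTCF core (CCNCNAGGG) in 6.25%, 6.99% and 3.35%. Of the other motifs, STAT (TTCNNNGAA) was in 10.9% of members and 8.35% of all peaks, the GATA factor site AGATAAG in 4.61% and 3.33%, MEF2 (AAAAATAG) in 2.96% and 1.5%, OCT (ATTTGCAT) in 1.97% and 1.37%, NF-kB (GGGANTTCC) in 1.64% and 1.21%, the ETS core (CCGGAAGT) in 0.987% and 0.80%, CRE (TGACGTCA) in 0.658% and 0.379%, and TCF/LEF (CTTTGATC) in 0.329% and 0.991%. The nuclear receptor motif AGGTCA was in 18.1% and 19.1%, the E-box CACCTG in 26% and 25.3%, the EGR motif (GCGTGGGCG) in none and 0.156%, and a CG in 96.7% and 92.5%. Motifs were counted apart from each other and their letters may overlap, and the GC content of the windows was 50.3% in members and in all peaks and 44.0% in opened peaks (medians). A match is a stretch of letters and not a measured binding event.

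**Figure D5:**
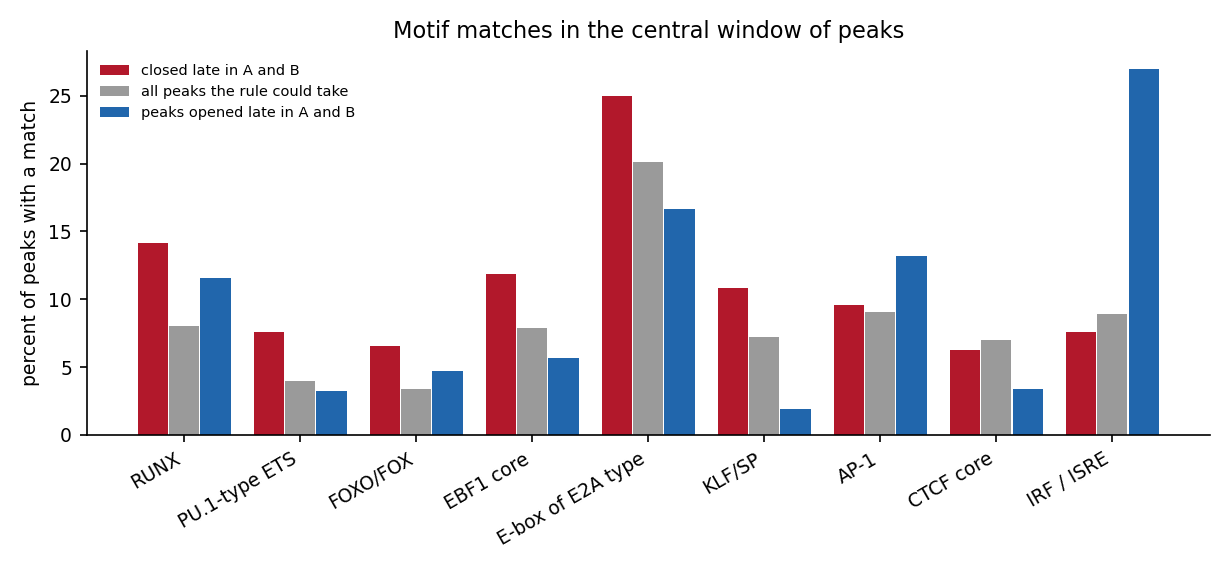
Percent of peaks (y axis) with at least 1 match to each of 9 motifs (x axis) in the 300 bases at the centre, for the 304 members (red), the 110249 peaks that the rule could take (grey) and the 1550 peaks opened late in A and B (blue). Members stand above the other 2 sets for RUNX, PU.1-type ETS, FOX, EBF1, E-box and KLF/SP letters, and the opened peaks for the interferon response motif, at 27%. The 202 peaks closed late in C and D are not drawn, and PU.1-type matches stood in 10.9% of them.

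Genes of 13 lists chosen for this model were then looked up, against a background of 0.276% of all peaks that the rule took. Of 558 peaks of B cell receptor, protein kinase C and Ras signalling genes 5 were members (0.896%), namely the Rasgrp3 promoter and 4 at Vav3. Adhesion and migration genes had 2 of 454 (Cdh5 and Sash1), imprinted genes 1 of 139 (Nespas) and NK cell marker genes 2 of 35, the promoters of the lectin-like receptor genes Klri2 (5.78 to 2.91 CPM in A and 4.84 to 2.63 CPM in B) and Klra1 (2.65 to 1.56 CPM and 2.80 to 1.42 CPM). These 2 peaks were lower with NK cells, not higher, and were at -0.30 ± 0.11 (adjusted p = 0.0328) and -0.51 ± 0.14 (adjusted p = 0.00298) in C and D. No member lay among 153 peaks of MHC and interferon target genes, 195 of STAT5 and cytokine signalling, 274 of haematopoietic progenitor and myeloid genes, 131 of AP-1, stress and immediate early genes, 88 of genes for ligands of activating NK receptors and adhesion partners, 182 of death receptor and apoptosis genes, 69 of T cell markers and 49 housekeeping promoters, nor among 540 peaks of the antigen receptor loci.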

How the data were processed

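ATAC-seq libraries of 4 B-ALL lines were grouped by line, experiment and arm per the labels. The authors aligned reads to GRCm38 with STAR, marked duplicates with Picard 2.27.4, called broad peaks with MACS2 2.2.7.1 and merged them to consensus peaks. The deposited table holds raw counts per consensus peak, and the deposited broad peaks carry the −log10 of a q-value (lowest 1.00). The study names a blacklist of the human build GRCh38. Consensus starts follow the 0-based convention of the broad peaks, so a printed peak start can be 1 base early.

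The members, lists and motifs were chosen with earlier results of these data known. CPM used column sums. TSSs came from GENCODE M21, and each peak was named by the gene of its nearest TSS. In C and D, edgeR 4.0.16 (TMM scaling, a term for each of 8 combinations of line and experiment, 3 arms in 1 fit) was used on peaks that passed filterByExpr and had broad peaks over them in all replicates of 1 or more groups. Calls needed a p of at most 0.05 after Benjamini-Hochberg adjustment and a log2 fold change of 0.58 in size, the study's thresholds, which were set there for DESeq2. Standard errors were obtained by dividing fold changes by the square root of F. On simulated counts for the TP2 comparison of C and D (55456 peaks), 50 of 50, 49 of 50, 50 of 50 and 50 of 50 peaks changed by -1, -0.8, 0.8 and 1 were called, and 0 of 55256 unchanged ones. The simulated counts had 1 mean per peak and the same change in every line and experiment. The real comparison, where lines and experiments differ, can do less well. The study describes biological replicates, and the labels do not tie them to cultures, so p-values measure only the spread of these samples, in part possibly technical.

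Named were the 12 members with the lowest mean difference in A and B at 3 CPM or more in cells alone, the 6 lowest among those called in C and D, up to 3 of each gene list, the 6 genes with most members, the 3 peaks on each side of the threshold, and members at Rasgrp3, the protocadherins, Nespas or Gnas, Tenm4 and Ppargc1a (none at the last 2). Levels in single libraries were given for 5 of them, and some items are not reported here. Alternatives covered scaling, pseudocount, filters, thresholds, replicates, experiments, lines, the replicate block, DESeq2 1.42.0 and the motif window.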

Additional observations from a re-analysis of the deposited data

Results flagged for a closer look

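At the region nearest to Tmem26, 1 of the 9 TP2 libraries of line B stood apart from the others of its group, at 4.10 CPM (replicate 2 of experiment 9.6) beside a median of 1.44 CPM. The group pools 3 experiments, and in line B experiment 9.6 had the highest mean in every arm. Its means were 9.98 CPM alone, 8.06 CPM at TP1 and 2.63 CPM at TP2. Those of 9.5 and 9.7 were 3.84 and 6.19 CPM alone, 2.66 and 2.92 CPM at TP1 and 1.03 and 1.09 CPM at TP2. Groups of 4 to 10 libraries were looked at for the 5 members given by library, 30 groups in all, and 1 stood out, where chance alone gives about 1 in 20.

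The intronic peak of Wwc1, which encodes a scaffold protein of the Hippo pathway (chr11:35877856-35879347), 2889 bp from the TSS, differed between lines C and D at TP2, with a change 0.913 higher on the log2 scale in D than in C (interaction term, edgeR, adjusted p = 0.000449). In C it went from 9.40 to 6.41 CPM (log2 fold change -0.46) and in D from 7.71 to 10.5 CPM (0.45), while in A and B the difference was -1.58 and -0.67. It was named because it was the 1 member past the threshold of that test, after its value was seen.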

How the results depend on the processing

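The number of members depended most on the scale of the rule. It was 487 with a pseudocount of 0.1, 108 with one of 2, and 34 at a difference of -1 or less. With TMM, DESeq2, running-median or GC-bin scaling it was 443, 449, 425 and 424 (304, 304, 289 and 297 of the members kept), with a minimum of 2 CPM 270, with none 309, and with the mean CPM over A and B only 303 (chosen after seeing the data). Leaving out 1 replicate number gave 268 to 368, with 224 to 259 members kept, and leaving out experiment 9.5, 9.6 or 9.7 gave 351, 384 and 380, with 236, 238 and 208 kept.

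In C and D the number called lower at TP2 ran from 46 to 61 over the alternatives with a fold threshold (51 to 54 without 1 replicate number) and was 156 by the adjusted p alone, with 8 higher then and 0 higher otherwise. At TP1 it was 5 with no filter, 4 in line C alone, 13 in line D alone, 6 to 13 without 1 replicate number and 106 by the adjusted p alone, with 2 higher then and 0 higher otherwise. In the same order the shares of all peaks lower were 0.163%, 0.198%, 0.198%, 0.0902% to 0.285% and 5.20%. The share of all peaks higher was 9.28% by the adjusted p alone and 1.21% to 1.93% otherwise. The cause was not tested. With a replicate block for each line, experiment and replicate number the counts were 50 at TP2 (48 shared) and 9 at TP1. Of all peaks 1.06% and 0.108% were lower then. Replicate numbers did not pair the samples (same-number correlation of deviations in C and D, median 0.02, range -0.34 to 0.42, over 0.1 in 11 of 70 pairs). Of 41 named members tested, 17 changed their call under some alternative. The fitted value of 6, none of them called, changed sign, that of A630031M04Rik (-0.13) to 0.0303 without experiment 9.7 (-0.2205 to 0.048 without 1 replicate number), of Gm22715 (-0.08) to 0.0041 in line D alone, of a Gse1 peak (-0.03) to 0.0166 in line D alone (-0.0808 to 0.0386 without 1 replicate number), of 2 Inpp5a peaks (0.12 and 0.02) to -0.0044 without experiment 9.7 and to -0.0141 with near-identical libraries kept, -0.1976 without experiment 9.7 and -0.0226 in line C alone (-0.0212 to 0.0746 without 1 replicate number), and of the Pde10a promoter (-0.20) to 0.0283 without experiment 9.7.

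In whole peaks instead of central windows, motif shares of members and all peaks were 45.72% and 30.2% for RUNX, 21.38% and 14.2% for PU.1-type ETS, 23.36% and 15.4% for FOX, 38.49% and 27.3% for the EBF1 core, 38.49% and 34.1% for the interferon response motif, which was lower in members in the central window, and 39.8% and 34.1% for AP-1. Members were wider than all peaks. Within 1 kb of a TSS lay 21.38% of members and 21.1% of all peaks. Depth limits the lowest regions, such as 2 to 27 counts per library at TP2 in line B for the region nearest to Tmem26.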

Other observations

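Chromosome X lay outside the rule. Of its 1539 peaks of mean CPM of 1 or more, 8 (0.520%) were lower by 0.58 or more in both A and B at TP2. They were peaks within 1 kb of the TSS of Zc3h12b (-0.94 in A and -0.95 in B), Egfl6 (-0.83 and -0.66), Spin4 (-0.69 and -0.65), Nexmif (-0.69 and -0.59) and Chst7 (-0.61 and -0.65), an intronic peak of Trpc5 (-0.80 and -0.88), an intergenic peak nearest to Gm5401 (-0.83 and -0.60) and a peak 3157 bp from the TSS of Tmsb4x (-0.64 and -0.60), the gene of the actin-binding thymosin beta.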
